A study of Mus musculus with 20 samples.

Results

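Rod photoreceptors were compared with the cells that the authors call Neurogenics in the 4 control libraries labelled postnatal day 5 (P5), to describe the step from the neurogenic state to a young rod. The cells are those that the authors' deposited cell types call Rods (10364 cells) and Neurogenics (1711 cells), together 12075 of the 17932 cells in these libraries and of 79009 cells in the whole series of 20 libraries. The tissue was retina of wildtype CD1 mice kept in culture as explants and electroporated with a control construct that carries GFP alone. The design text of the series says that cells positive for GFP were isolated, and they were sequenced with 10x Genomics 3′ chemistry, in which each captured transcript is counted once through a unique molecular identifier (UMI). All groups of the series share the strain, the culture and the GFP selection, and the other groups are a GFP control at postnatal day 2 (P2) and groups that received MEIS1, MEIS2 or both, at P2 or P5. That text gives 2 or 5 days of treatment and names NR2F1 and NR2F2 constructs, whereas each sample is labelled with the age P2 or P5 and with GFP or MEIS, which was followed. The labels do not say which animals or dissections a library came from, so the tests measure the spread between these libraries only.

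Neurogenic progenitors are retinal progenitors that have begun to express proneural factors such as NEUROG2, basic helix-loop-helix proteins that push a dividing cell toward a neuron, and Notch ligands such as DLL1, which keep the neighbouring progenitors undifferentiated through the Notch targets HES1 and HES5. In the postnatal mouse retina most cells born in this way become rods. Rod fate depends on OTX2 and CRX, homeodomain proteins shared by all photoreceptors, on NRL, a leucine zipper protein that selects rod over cone fate, and on its target NR2E3, and it ends with the outer segment, a modified cilium packed with the phototransduction proteins.

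The libraries contributed 4319, 2136, 2686 and 1223 rods and 287, 346, 887 and 191 neurogenic cells (control libraries 1 to 4). Each sum of a library and type held between 3291712 and 15848192 UMIs. Rods held fewer UMIs per cell in 4 of 4 libraries: the medians were 2463, 4503, 4080 and 7053 in rods and 16656, 16284, 7686 and 17277 in neurogenic cells, a mean difference of -9951 UMIs (SD 4534, n = 4), with an exact two-sided sign-flip p of 0.125, the smallest that 4 pairs allow. The median number of genes per cell differed by -2101.5 on average, and was lower in rods in 4 of 4 libraries. Median mitochondrial UMIs were 10.1% in rods and 7.75% in neurogenic cells of library 1, and between 3.31% and 5.91% for both types in the other libraries. All values are shares of a sum, and since rods held fewer UMIs per cell, a gene with a higher share in rods need not have had more transcripts per cell. Every cell carried at least 1 GFP UMI, so GFP served as a selection gene. Pairs of the 4 libraries shared between 1 and 16 cell barcodes.

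Rod and neurogenic markers followed the authors' names, while Müller glia markers were also higher in Neurogenics. All 10 rod markers were higher in Rods, and 12 of 14 neurogenic markers were higher in Neurogenics. The exceptions were Insm1, higher in Rods, and Gadd45a, which did not pass the test. The names rest on the expression of the same genes, so these counts describe the classes, and the tests below show how evenly a difference held over libraries rather than that the classes differ. The summed level of the 14 neurogenic markers was 736 to 3049 CPM in rods and 2784 to 6231 CPM in neurogenic cells. That of 12 Müller glia markers was 353 to 1110.1 CPM in rods and 3554 to 7389.95 CPM in neurogenic cells. Of 10 Müller glia markers tested 9 were lower in rods, with a median change of -4.52, against -3.29 for the neurogenic markers. The 14 bipolar markers summed to 431 to 620.1 CPM in rods and 1007 to 1337 CPM in neurogenic cells. Summed microglia markers were 67.8 to 278 CPM in rods and 36.9 to 171 CPM in neurogenic cells. The summed level was also higher in neurogenic cells for the 12 amacrine markers (249 to 366 CPM against 67.8 to 210 CPM in rods), the 9 horizontal cell markers (502 to 585 against 129 to 191), the 10 ganglion cell markers (138 to 221 against 11.5 to 56.7) and the 11 pigment epithelium and vascular markers (182 to 364 against 7.75 to 21.5). Gene by gene these lists were not uniform. Of 11 amacrine markers tested 4 were higher and 4 lower in rods, with a median change of 0.97, and of 6 horizontal cell markers 1 was higher and 4 lower. Isl1, also a bipolar marker, was the only one of 6 ganglion cell markers called (-5.20). Kdr, a receptor of vascular growth factor, was 1 of 2 called lower among 4 pigment epithelium and vascular markers (-5.99). The summed level of the 12 cone markers was higher in rods, at 2026 to 3093 CPM against 322 to 669. The ganglion cell genes Pou4f2 and Pou4f3 and the pigment epithelium gene Rpe65 were at 0 in both. The part of these cell types in the results was not tested. In progenitors of the same libraries the Müller glia markers Crym and Rlbp1 were higher than in neurogenic cells. Their mean levels were 4445 and 1345 CPM in progenitors, against 1328 and 380 CPM in neurogenic cells. Kdr was at 691 against 255 CPM. The other glia and vascular markers are not given for progenitors.

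The difference covered many of the genes tested. Of 14601 genes tested with edgeR's quasi-likelihood test paired by library, 8619 (59%) passed an adjusted p (Benjamini-Hochberg) of 0.05, 4336 (29.7%) higher and 4283 (29.3%) lower in rods. Against a threshold of 2-fold, 1299 (8.9%) were higher and 1740 (11.9%) lower. The rod and neurogenic sums did not overlap for 3253 genes (22.3%) with rods higher and for 3296 (22.6%) with rods lower. These shares are the background against which each gene group is read. Levels are given as counts-per-million (CPM), scaled by the trimmed mean of M values (TMM), for libraries 1 to 4 in order, and changes as the log2 of rods over neurogenic cells ± standard error. Marker sums, levels by cluster and comparisons with other cell types use CPM without that scaling. The 3′ counts are not corrected for length, and levels of different genes are not compared. All 24 phototransduction, 24 Notch and 32 ribbon synapse genes passed the filter on low counts, as did 34 of 37 outer segment, 23 of 26 transcription factor, 20 of 24 proneural, 30 of 31 progenitor, 26 of 30 S phase, 26 of 35 mitotic and 9 of 12 cone genes. The counts below describe these tested members.

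**Figure D1:**
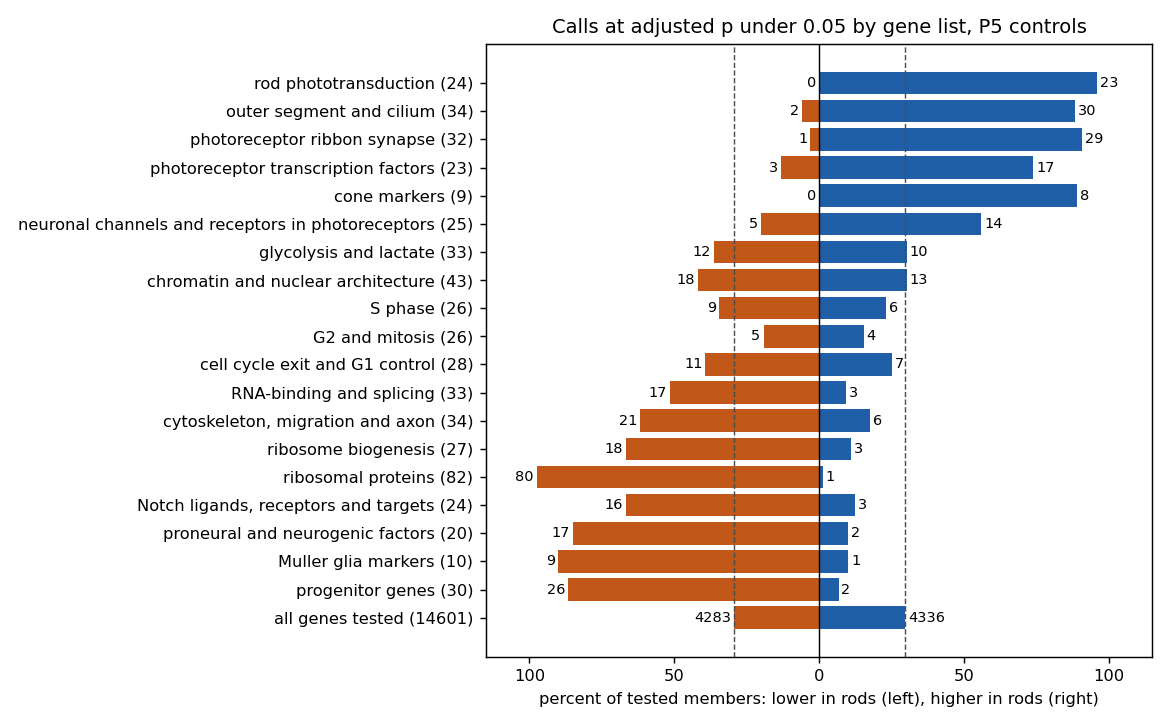
Percent of the tested members of each gene list called higher (right, blue) or lower (left, orange) in rods than in neurogenic cells of the 4 P5 control libraries at an adjusted p under 0.05; the number beside each bar counts genes, and the dashed lines mark all 14601 genes tested (29.7% higher, 29.3% lower). The phototransduction bar reaches 23 of 24 genes on the right, and the progenitor bar 26 of 30 genes on the left.

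Most photoreceptor transcription factors were higher in rods, Nrl and Nr2e3 among the most and Otx2 not detectably. Of 23 photoreceptor transcription factors tested, 17 were higher in rods, 3 lower and 3 not called, with a median change of 1.68 against 0.04 over all genes. Nrl (chr14:55518978-55524981, mm10) stood at 23.9, 10.2, 13.9 and 13.4 CPM in neurogenic cells and at 452, 558, 444 and 668 CPM in rods, a change of 5.13 ± 0.28 (adjusted p = 3.4e-05). Nr2e3, the nuclear receptor downstream of NRL that represses cone genes, was at 45.2, 34.7, 33.3 and 30.6 CPM in neurogenic cells and 1001, 1569, 1289 and 1598 CPM in rods (change 5.23 ± 0.23). Neither gene's groups came close to overlapping, and 22.3% of all genes tested had no overlap with rods higher.

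Samd7 and Samd11, Polycomb-associated proteins that silence non-rod genes, were higher by 5.22 and 5.17. Crx (chr7:15865947-15879968) gave UMIs in neurogenic cells as well, at 234, 114, 218 and 217 CPM against 549, 509, 565 and 668 CPM in rods, a change of 1.59 ± 0.16. Prdm1, which holds cells in photoreceptor rather than bipolar fate, was higher by 2.92 ± 0.15, Casz1, a zinc finger factor of late-born cells, by 2.29 ± 0.20, and Pias3, a partner of NR2E3, by 3.66 ± 0.16. Mef2d, a cofactor of CRX, was higher by 1.37, and Neurod1, which photoreceptors keep after birth, by 1.68.

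Otx2 (chr14:48657677-48673819), the homeodomain factor above Crx, did not pass the test, at 937, 502, 1000.2 and 867 CPM in neurogenic cells and 641, 548, 1339 and 952 CPM in rods (change 0.04 ± 0.16, adjusted p = 0.866). Rods were higher in libraries 2, 3 and 4 and lower in library 1. The sign of this small difference turned under 5 of the other settings. The factors lower in rods were Rorb (-1.0 ± 0.16), a nuclear receptor needed upstream of Nrl, Nr2f1 (-2.68 ± 0.20), an orphan nuclear receptor of progenitors, and the clock gene Nr1d1 (-0.56). Rax, the eye field factor, was 177 ± 33.2 CPM in neurogenic cells and 331 ± 85.0 CPM in rods (mean ± SD, n = 4), a change of 0.89 ± 0.12.

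Meis1 and Meis2, the TALE homeodomain factors that the series overexpresses in other libraries, were both higher in control rods. Meis1 (chr11:18879817-19018985) was at 182, 133, 137 and 123 CPM in neurogenic cells and 397, 237, 256 and 278 CPM in rods (change 1.01 ± 0.10, adjusted p = 0.000196). Meis2 (chr2:115863064-116065839) was at 328, 102, 145 and 251 CPM and 555, 550.4, 937 and 699 CPM (change 1.84 ± 0.32, adjusted p = 0.00272). Both genes were higher in rods in 4 of 4 libraries, without overlap, as held for 22.3% of all genes tested. GFP itself was lower in rods (-1.82 ± 0.44), at 2889, 3153, 3400.0 and 2747 CPM against 36603, 5989, 8893 and 7729.7 CPM in neurogenic cells, with library 1 far above the rest.

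**Figure D2:**
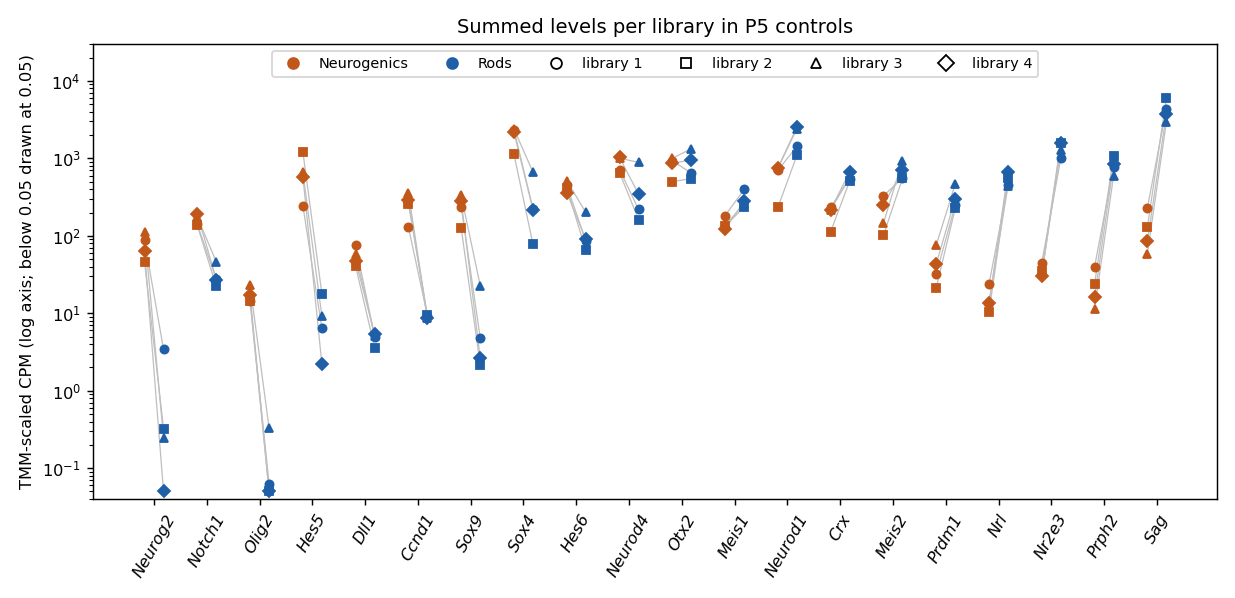
TMM-scaled CPM (log axis) of 20 genes in the summed neurogenic cells (orange) and rods (blue) of each P5 control library; lines join the sums of a library, and symbols mark the library. The lines of Neurog2, Notch1, Olig2 and Hes5 fall and those of Nrl, Nr2e3, Prph2 and Sag rise in all 4 libraries, while those of Otx2 lie nearly flat.

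Nearly the whole rod phototransduction cascade was higher in rods: 23 of 24 genes tested were called higher and none lower (22 of them beyond 2-fold), with a median change of 4.95. Sag, the rod arrestin that helps to end the light response, was at 4404, 5995, 2955 and 3733 CPM in rods and 229, 129, 58.6 and 85.0 CPM in neurogenic cells (change 5.23 ± 0.28, adjusted p = 3.26e-05). Library 3 had the lowest Sag in rods and library 1 the highest in neurogenic cells.

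The enzymes and channel of the cascade moved with it. Pde6b and Pde6g, the catalytic and inhibitory subunits of the rod phosphodiesterase, were higher by 5.23 ± 0.32 and 5.17 ± 0.20. Cnga1 and Cngb1, the subunits of the cyclic-nucleotide-gated channel that closes in light, were higher by 5.28 ± 0.20 and 5.27 ± 0.26. Grk1, the kinase that begins the shut-off, Rgs9, which speeds transducin's shut-off, and Pdc, which binds transducin's beta and gamma subunits, were higher by 5.34, 5.23 and 5.26.

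Transducin was uneven. Its gamma subunit Gngt1 was higher by 5.04 ± 0.37 and its beta subunit Gnb1 by 2.01 ± 0.15. The alpha subunit Gnat1 was at 4.68, 10.1, 1.57 and 4.64 CPM in rods and 0.684, 0.379, 0.963 and 0.594 CPM in neurogenic cells (change 2.66 ± 0.60), from only 74, 93, 19 and 46 UMIs in rods. Recoverin, the calcium sensor encoded by Rcvrn, was at 292, 656, 211 and 317 CPM in rods (change 5.05 ± 0.40). Abca4, the retinoid flippase of the disc rim, alone did not pass the test, at 254, 168, 163 and 114 CPM in rods and 234, 127, 156 and 164 CPM in neurogenic cells.

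Short promoter windows of 5 genes are shown because they bear on the factors above: Crx and Nrl as regulators, Sag and Cnga1 as phototransduction genes that were higher alongside Crx and Nrl, and Hes5 as a gene lower after the step. The sequences are from RefSeq (GRCm38.p6), 250 bases before to 50 after the start, 5′ to 3′ on the gene's strand, and capitals mark every match, on either strand, to TAATCC (the core bound by CRX and OTX2), TGCTGA (a core of the NRL site), CAGATG or CAGCTG (E-boxes bound by proneural factors). No motif contains another. Crx lies at chr7:15879906-15880205 (minus strand), Nrl at chr14:55524203-55524502 (minus), Sag at chr1:87803430-87803729 (plus), Cnga1 at chr5:72642703-72643002 (minus) and Hes5 at chr4:154960673-154960972 (plus). The Nrl and Cnga1 windows lie inside the annotated genes, which reach to 55524981 and 72644275, so the start meant is that of RefSeq.
Crx: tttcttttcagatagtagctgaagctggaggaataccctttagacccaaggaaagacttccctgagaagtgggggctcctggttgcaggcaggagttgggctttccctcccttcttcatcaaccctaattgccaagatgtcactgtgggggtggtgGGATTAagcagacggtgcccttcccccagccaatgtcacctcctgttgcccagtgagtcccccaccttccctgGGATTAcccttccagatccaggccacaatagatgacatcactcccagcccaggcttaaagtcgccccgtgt
Nrl: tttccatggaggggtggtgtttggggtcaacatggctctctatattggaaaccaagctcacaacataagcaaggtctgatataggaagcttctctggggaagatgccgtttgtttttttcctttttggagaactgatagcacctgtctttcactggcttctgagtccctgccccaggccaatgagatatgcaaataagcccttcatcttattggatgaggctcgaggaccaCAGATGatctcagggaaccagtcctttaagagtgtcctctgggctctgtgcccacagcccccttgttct
Sag: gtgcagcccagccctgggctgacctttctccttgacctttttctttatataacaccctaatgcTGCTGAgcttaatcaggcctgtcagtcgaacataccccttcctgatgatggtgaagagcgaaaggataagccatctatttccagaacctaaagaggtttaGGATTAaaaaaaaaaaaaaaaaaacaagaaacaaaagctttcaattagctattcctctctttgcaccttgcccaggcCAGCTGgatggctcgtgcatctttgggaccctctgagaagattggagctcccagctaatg
Cnga1: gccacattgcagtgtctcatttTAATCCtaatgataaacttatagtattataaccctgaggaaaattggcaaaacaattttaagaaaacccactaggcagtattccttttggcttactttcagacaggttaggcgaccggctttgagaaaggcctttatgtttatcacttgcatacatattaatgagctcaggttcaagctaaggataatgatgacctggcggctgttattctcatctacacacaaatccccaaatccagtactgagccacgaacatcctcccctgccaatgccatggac
Hes5: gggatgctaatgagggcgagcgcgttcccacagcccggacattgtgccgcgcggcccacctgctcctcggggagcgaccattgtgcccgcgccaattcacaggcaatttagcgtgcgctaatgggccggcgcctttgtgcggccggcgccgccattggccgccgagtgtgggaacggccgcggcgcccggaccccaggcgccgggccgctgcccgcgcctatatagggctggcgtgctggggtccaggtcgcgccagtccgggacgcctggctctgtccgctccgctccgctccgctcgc
The Crx window held TAATCC on the opposite strand, starting 94 and 21 bases before the start. Nrl held CAGATG 19 bases before the start. Sag held TGCTGA at 187 bases before the start, an opposite-strand match to TAATCC at 87 bases and CAGCTG at 10 bases, and Cnga1 held TAATCC at 228 bases before it. Hes5 held none of the 4 motifs. TAATCC was present in 9 of the 17 phototransduction genes with a listed promoter (52.9%) and in 7 of 23 photoreceptor transcription factors (30.4%), against 7.26% of the 10729 tested genes with a promoter and 8.14% of all 27025 such genes. It was present in 0 of 18 proneural and 1 of 19 progenitor genes, in 11.9% of the genes higher beyond 2-fold and in 6.56% of those lower. TGCTGA was present in 6 of the 17 phototransduction genes (35.3%), 7 of 19 progenitor genes (36.8%) and 5 of 18 proneural genes (27.8%), against 18.6% of tested genes. Of the phototransduction genes 23.5% held CAGATG, against 13.8% of tested genes, and 29.4% held CAGCTG, against 18.4%. The shares for CAGATG and CAGCTG were 11.1% and 27.8% in proneural, 21.1% and 10.5% in progenitor and 25.8% and 12.9% in outer segment genes. A match describes letters in a window and says nothing of binding, and a window without a match says nothing of the factor.

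Rod genes gave UMIs in every cell type examined. For the 12 phototransduction genes with a change above 3 and more than 50 CPM in rods, neurogenic cells held a median of 4.98%, 2.00%, 2.28% and 1.72% of the rod level in libraries 1 to 4. Amacrine cells, interneurons that make no phototransduction proteins, held 18.3%, 6.09%, 6.20% and 5.64%, bipolar cells 7.38%, 3.12%, 2.23% and 2.26%, and progenitors 2.88%, 1.18%, 1.95% and 1.00%. Neurogenic cells were below amacrine cells for 12, 12, 11 and 11 of the 12 genes. The genes were chosen by their change over neurogenic cells and not over amacrine cells, which fixes part of this order. Rods supplied 27.1% to 43.1% of the UMIs of a library. Neurogenic cells were above progenitors in 4 of 4 libraries, and amacrine cells held fewer UMIs than neurogenic cells in libraries 1, 2 and 4 (medians of 4244.5, 6239 and 12441) and about as many in library 3 (7752). Whether these UMIs are expression or free RNA was not tested. The changes of these 12 genes lay between 4.71 and 5.34, with a median of 5.23, and the part of free RNA in them was not tested.

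**Figure D3:**
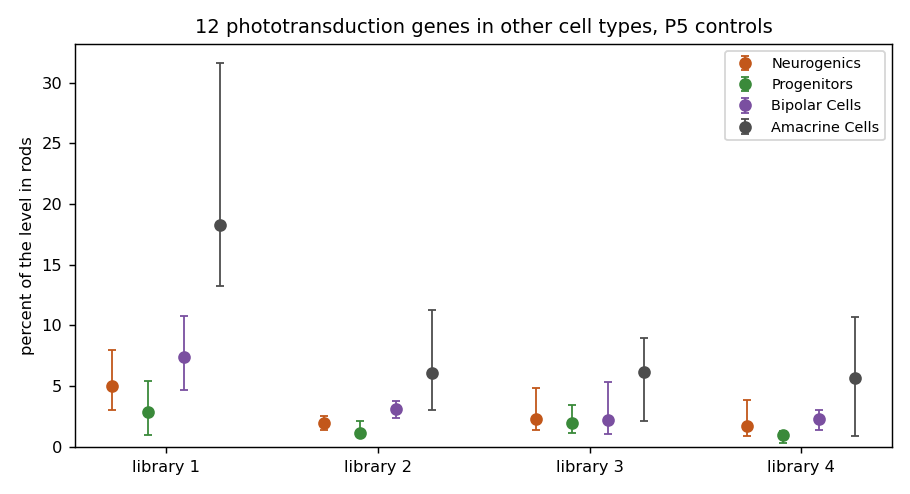
Median (points) and range (bars) over 12 phototransduction genes of the level in 4 cell types, as percent of the level in rods of the same P5 control library. Neurogenic cells lie below amacrine cells in each library, and library 1 is highest, with a median of 4.98% in neurogenic cells and 18.3% in amacrine cells. The genes were chosen by their change over neurogenic cells, which fixes part of this order.

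Outer segment and cilium genes followed the cascade, with 30 of 34 tested higher and 2 lower in rods and a median change of 2.67. Among the largest were Rp1, a microtubule protein that aligns the discs (5.48 ± 0.34), and Prph2, the tetraspanin of the disc rim (5.28 ± 0.28). Prph2 was at 39.9, 23.9, 11.4 and 16 CPM in neurogenic cells and 783, 1078, 597 and 849 CPM in rods. These did not overlap, as held for 22.3% of all genes tested. Its partner Rom1 was higher by 3.72 and Prom1, of the growing discs, by 3.67.

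Genes of the connecting cilium and of ciliary transport were higher too, Rpgrip1 by 4.33, Cep290 by 2.85 and Ift88 by 2.10. Crb1, an apical polarity protein, was lower in rods (-1.92 ± 0.17), at 62.5, 76.7, 45.0 and 53.2 CPM against 156, 291, 237 and 218 CPM, and so was Rp2 (-0.78), a GTPase-activating protein of ciliary trafficking. Against neurogenic cells of cluster 4 alone Crb1 turned direction and was not called (0.56, adjusted p = 0.0502).

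The presynaptic machinery of the rod terminal was likewise higher, in 29 of 32 ribbon synapse genes with 1 lower and a median change of 2.12. Slc17a7, the vesicular glutamate transporter, was at 10.7, 5.31, 2.06 and 3.27 CPM in neurogenic cells and 170.4, 261, 92.8 and 175 CPM in rods (change 5.09 ± 0.30). Elfn1 and Egflam (pikachurin), adhesion proteins by which a rod engages its bipolar partners, were higher by 4.97 ± 0.24 and 4.19 ± 0.32, and Cacna1f, the calcium channel of the ribbon, by 4.24 ± 0.30. General release proteins moved less, Snap25 by 3.01, Syt1 by 2.24 and the ribbon protein gene Ctbp2 by 0.55.

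Rims1, an active zone scaffold, went the other way, at 35.3, 8.13, 2.89 and 5.14 CPM in rods against 46.1, 147, 60.8 and 81.1 CPM in neurogenic cells (change -3.21 ± 0.72, adjusted p = 0.0079). Library 1 differed little between the types and the other libraries differed widely. Its relative Rims2 was higher in rods by 1.15. Of 25 neuronal channel and receptor genes, 14 were higher and 5 lower.

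The proneural programme was lower in rods in 17 of 20 genes tested, with 2 higher and a median change of -2.82. Neurog2 (chr3:127633135-127635631) was at 87.6, 46.1, 111 and 63.9 CPM in neurogenic cells and 3.42, 0.325, 0.248 and 0 CPM in rods, the last from 0 UMIs (change -6.38 ± 0.65, adjusted p = 0.000265). Olig2, another helix-loop-helix factor of the last progenitor divisions, gave 63, 77, 166 and 58 UMIs in neurogenic cells and 1, 0, 4 and 0 in rods. For both genes no rod sum reached any neurogenic sum, as held for 22.6% of all genes tested.

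Other members of the list ranged widely. Sox4 and Sox11, which open neuronal genes, were lower in rods (-3.11 ± 0.33 and -2.71 ± 0.26), as was Hes6, an antagonist of HES1 (-2.11 ± 0.22). Neurod4, a factor of newborn retinal neurons, was at 718, 655, 1005 and 1029 CPM in neurogenic cells and 219, 162, 888 and 346 CPM in rods (change -1.38 ± 0.29, adjusted p = 0.00634), and library 3 kept the most in rods. The call on Neurod4 was lost without the library block (-1.07, adjusted p = 0.0838). Against neurogenic cells of the authors' cluster 11 alone Neurod4 was higher in rods (2.08, adjusted p = 0.000475). Insm1, a zinc finger factor of delaminating neuronal precursors, was instead higher in rods, at 321, 213, 248 and 276 CPM against 144, 40.0, 84.9 and 77.0 CPM (change 1.73 ± 0.20).

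Notch signalling genes were lower in rods in 16 of 24 cases and higher in 3, with a median change of -1.61. The ligands Dll1, Dll3 and Dll4 were lower in rods (-3.54 ± 0.16, -3.41 ± 0.27 and -4.33 ± 0.54), as were the receptors Notch1 and Notch2 (-2.43 ± 0.16 and -4.18 ± 0.24). The targets had the largest changes of the list: Hes5 (chr4:154960923-154962371) was at 245, 1215, 661 and 582 CPM in neurogenic cells and 6.39, 17.9, 9.18 and 2.22 CPM in rods (change -6.26 ± 0.42, adjusted p = 5.85e-05), and Hes1 at 64.8, 490.2, 151 and 239.5 CPM and 3.54, 6.50, 3.64 and 3.03 CPM (change -5.53 ± 0.37). Library 1 had the lowest Hes5 and Hes1 in neurogenic cells. Against neurogenic cells of cluster 4 alone Hes1 lost its call (-0.30, adjusted p = 0.534).

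Other components moved little or the opposite way. Rbpj, the DNA-binding partner of the Notch intracellular domain, was lower in rods (-0.61 ± 0.10), while Numb, which antagonizes Notch, and the ligand ubiquitin ligase Mib1 were higher by 0.50 and 0.43, and the ligand gene Jag2 by 1.29.

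Progenitor genes were lower in 26 of 30 cases and higher in 2, with a median change of -4.21. Sox9, a factor of progenitors and Müller glia, was at 239, 126, 332 and 285 CPM in neurogenic cells and 4.81, 2.17, 22.8 and 2.62 CPM in rods (change -5.36 ± 0.46). The progenitor factors Sox2 and Sox8 were lower (-4.90 and -6.44), as were Pax6 (-4.01) and Nfia, a factor of late progenitors (-4.85). Its relative Nfib was lower by less (-1.46 ± 0.40, adjusted p = 0.0177), with rods lower in libraries 1, 2 and 4 but higher in library 3 (844 against 738 CPM). The call on Nfib was lost without the block (adjusted p = 0.0508) and when library 1, 2 or 4 was left out. Genes shared with Müller glia were lower as well: Crym, a thyroid hormone-binding protein (-5.89 ± 0.58), and Rlbp1, a retinaldehyde carrier of glia (-5.90 ± 0.38). The call on Rlbp1 was lost against neurogenic cells of cluster 4 alone (-0.63, adjusted p = 0.156). Fabp7, a lipid-binding protein of radial glia and newborn neurons, was higher in rods (0.84 ± 0.18, adjusted p = 0.00594), at 2336, 1185, 4204 and 1761 CPM against 1117, 838, 1623 and 1303 CPM, with rods highest in library 3. That call was lost without the block (adjusted p = 0.0517), in thinned cells (0.45, adjusted p = 0.08), with all cell types in the fit (adjusted p = 0.0994) and against cluster 4 alone (0.11, adjusted p = 0.696).

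By rank among well-measured genes, the 15 most elevated in rods included, beside the photoreceptor genes above, the less studied transcripts 2310030A07Rik (5.68 ± 0.25) and 4930419G24Rik (5.45 ± 0.20), the scaffold gene Frmpd2 (5.36), the actin-associated Synpo2 (5.35) and Rp1l1, a relative of Rp1 (5.24). The 15 most reduced were led by Rgs13, a regulator of G protein signalling, at 100.3, 77.9, 105 and 69.8 CPM in neurogenic cells and 0.190, 0.758, 1.65 and 0.504 CPM in rods (-6.91 ± 0.37), and by Sparc, a matrix-binding protein (-6.70 ± 0.52). Ptn, a growth factor (-6.47), Kdr, the VEGF receptor (-5.99), Ncald, a calcium sensor (-6.15), and Prr5l, Gm29260, Sntb1 and Prss23 (-6.49, -6.35, -6.17 and -5.98) are among the 15, as are Neurog2, Hes5, Rlbp1 and Crym.

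Genes of the cell cycle moved in both directions, in S phase at shares near those of all genes and in mitosis at lower shares. Ccnd1, the cyclin that drives progenitors into S phase, was at 129.5, 260.2, 361 and 294 CPM in neurogenic cells and 9.31, 9.43, 8.68 and 8.57 CPM in rods (change -4.76 ± 0.27), and its kinase partner Cdk4 (-2.57 ± 0.26) and the S phase activator E2f1 (-4.12 ± 0.29) were lower too. Of 26 S phase genes 9 were lower and 6 higher, with a median of 0.08: the helicase gene Mcm2 was lower (-2.28), while Gins2, of the replication fork, and Dut, which clears dUTP, were higher by 1.21 and 1.07. Of 26 mitotic genes 5 were lower and 4 higher. Mki67 gave only 9, 4, 25 and 10 UMIs in neurogenic cells and 11, 6, 18 and 7 in rods (change -1.32 ± 0.40, adjusted p = 0.0257), a call that was lost when library 1, 3 or 4 was left out (adjusted p = 0.0672, 0.0808 and 0.0924) and with all cell types in the fit (0.241).

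The inhibitors of the cycle did not move as a group. Cdkn1c was lower in rods (-2.55 ± 0.20), Cdkn2d higher (1.06 ± 0.15), and Cdkn1b did not pass the test (-0.30 ± 0.12, adjusted p = 0.0715). Cdkn1b was called lower under the stricter filter (-0.34, adjusted p = 0.0467), in cells thinned to 2000 UMIs (-0.39, adjusted p = 0.0416) and against cluster 11 alone (-0.65, adjusted p = 0.0050). Btg2, an antiproliferative gene of the final division, was slightly lower (-0.61 ± 0.12, adjusted p = 0.00476). The call of Btg2 was lost without the library block (adjusted p = 0.413), with all cell types in the fit (0.17), against cluster 11 alone (0.0518) and for rods of cluster 0 alone (0.0864). Over the 28 genes of cycle exit and the first gap phase, 7 were higher, 11 lower and 10 not called, and 8 were lower beyond 2-fold, against 11.9% of all genes.

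Over 33 genes of glycolysis and lactate 10 were higher and 12 lower, shares near those of all genes. Single members differed widely in both directions. Ldha, the lactate dehydrogenase subunit that favours lactate production, was at 297, 113, 183 and 215 CPM in neurogenic cells and 1143, 1412, 1698 and 1630.2 CPM in rods (change 2.93 ± 0.28), while Ldhb was lower (-2.08 ± 0.21). The neuronal enolase Eno2 was higher (2.65 ± 0.26) and the general enolase Eno1 lower (-1.98 ± 0.13). Aldoa and Pdk2, which inhibits pyruvate dehydrogenase, were higher by 1.76 and 2.34, and Pfkp, a phosphofructokinase, was lower (-2.42). The mitochondrial creatine kinase Ckmt1 was higher (4.70 ± 0.32) and the cytosolic Ckb lower (-1.74 ± 0.17). Of the sodium pump's beta subunits, Atp1b2 was higher by 2.13 and Atp1b3 lower (-2.81).

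Ribosomal protein genes were lower in rods in 80 of 82 cases, with a median change of -0.95. Beyond 2-fold 16 of the 82 were lower, a share above the 11.9% of all genes. Rpl3l was the exception that was higher (5.04), and Rpl10a did not pass the test (0.02). Ribosome biogenesis genes were lower in 18 of 27 cases and higher in 3, among them Npm1, the nucleolar chaperone (-1.40 ± 0.10), and Mycl, a Myc family factor (-3.49 ± 0.39). Many of these genes, like Eno1 and Hmgn2, have near-identical copies elsewhere in the genome, so reads could be split or lost in counting.

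Of 43 chromatin genes 13 were higher, a share near the 29.7% of all genes, and 18 were lower, a share above the 29.3% of all genes, of which 2 were lower beyond 2-fold. Maturing rods of the mouse are known for an inverted nucleus that lacks lamin A and the lamin B receptor. Lmna, the lamin A gene, was lower in rods (-1.66 ± 0.28), at 4.18, 1.73, 1.82 and 2.32 CPM against 7.75, 7.59, 7.02 and 8.32 CPM, while Lbr, the receptor gene, was higher (0.98 ± 0.15). Against neurogenic cells of the authors' cluster 4 alone, Lmna lost its call (-0.95, adjusted p = 0.107). The de novo methyltransferase Dnmt3a was higher (1.78 ± 0.10), as were the linker histone Hist1h1c (1.94 ± 0.12) and the nucleosome-binding Hmgn2 (1.82 ± 0.14). Of the alternative methyltransferases of Polycomb complex PRC2, Ezh1 was higher (1.33 ± 0.14) and Ezh2 lower (-0.52 ± 0.15, adjusted p = 0.0228), and the call on Ezh2 was lost when library 1, 2 or 4 was left out.

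RNA-binding and cytoskeletal genes were mostly lower, in 17 of 33 and 21 of 34 cases with 3 and 6 higher. Msi1 and Srrm3, splicing regulators that photoreceptors use for their own exons, were higher by 0.52 and 1.57, while Rbfox2, a regulator of neuronal exons, was lower (-3.56 ± 0.71). Tubb3 and Tubb2b, tubulins of growing neurons, were lower (-3.29 and -3.34), as were Kif5c, a transport motor (-4.36), and Robo1, a guidance receptor (-3.54). Map1b and Dpysl3, which also serve growing processes, were higher by 1.46 and 1.57.

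Of 9 cone markers tested 8 were higher in rods. Gngt2 and Gnb3, cone transducin subunits, were higher by 3.55 ± 0.31 and 1.72 ± 0.21, Thrb, the thyroid hormone receptor of cones, by 3.53 ± 0.28 and the short-wavelength opsin gene Opn1sw by 2.88 ± 0.30. Gnat2, the alpha subunit of cone transducin, did not pass the test (-0.15 ± 0.25). Gnat2 was called lower in rods against cluster 4 alone (-0.81, adjusted p = 0.0387) and higher against cluster 11 alone (2.80, adjusted p = 0.00487). The counts behind some cone markers are small: Pde6c gave 179, 10, 64 and 18 UMIs in rods. Mean levels in rods, amacrine cells and cones (cones in 2 libraries) were 14.9, 5.90 and 677 CPM for Opn1sw. They were 4.93, 2.29 and 446 CPM for Pde6c, 378, 123 and 1216 CPM for Thrb, and 1243, 126 and 780 CPM for Gngt2. The part of free RNA in the cone markers of rods was not tested. Of 13 bipolar markers tested 5 were lower and 3 higher, the lower ones including Isl1 (-5.20 ± 0.59) and Lhx4 (-1.70 ± 0.29), while Pcp2, a marker of rod bipolar cells, was higher (4.23 ± 0.34) and Grm6, the glutamate receptor of ON bipolar cells, did not pass the test.

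Of 15 immediate early and stress genes tested, 2 were higher, 4 lower and 9 not called, with a median change of -0.17. The immediate early genes Fos, Egr1 and Ier2, which respond to stimulation and to dissociation, were lower in rods (-2.06 ± 0.28, -2.42 ± 0.24 and -2.20 ± 0.15). The heat shock gene Hspa1a was higher (1.00 ± 0.26, adjusted p = 0.0148), but its level rested on 2 libraries: 129.6, 1417, 1.16 and 0.403 CPM in rods and 75.5, 529, 0.551 and 1.19 CPM in neurogenic cells. The call was lost without library 2 (adjusted p = 0.144).

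The authors' clusters divide both classes, and their values are given as a description, since clustering used these genes. Neurogenics comprises cluster 11 (665 cells, 26.8% to 46.0% of the class per library) and cluster 4 (1046 cells). Cluster 11 was higher than cluster 4 for Hes5, Hes1, Ccnd1 and Rlbp1. Mean levels over the 4 libraries were 1389 CPM of Hes5 against 64.7 CPM in cluster 4, 493 against 6.42 CPM of Hes1, 571 against 25.0 CPM of Ccnd1 and 847 against 9.52 CPM of Rlbp1. For the other Notch and progenitor genes the levels in clusters 11 and 4 are not given in the text. Neurog2 was higher in cluster 11 as well (155 against 24 CPM).

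Cluster 4 was higher for Otx2, at 1212 CPM against 262 CPM in cluster 11, and for Neurod4, at 1409.9 against 82.5 CPM. Mybl1, a Myb family factor, was at 459 against 154 CPM, and Crx at 295 against 50.8 CPM. The bipolar factors Isl1 and Lhx4 were higher in cluster 4 as well, at 254 against 6.77 CPM and 215 against 9.02 CPM. Nrl was low in both (10.9 and 17.5 CPM).

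Which cluster stood for the neurogenic state decided several calls. Against cluster 4 alone, Otx2 was lower in rods by 0.53 on the log2 scale (adjusted p = 0.00953), and against cluster 11 alone it was higher by 1.65 (adjusted p = 0.00103). Neurod4 was lower in rods against the whole class, but higher by 2.08 against cluster 11 (adjusted p = 0.000475), as was Lhx4 by 2.08 (adjusted p = 0.000687). Abca4 changed by 3.53 against cluster 11 and by -0.70 against cluster 4. Hes1, Id3, Rlbp1, Eno1 and Cdkn1c lost their calls against cluster 4, at -0.30, -0.50, -0.63, -0.06 and -0.72. Mki67, Lmna, Mib1, Ctbp2 and Fabp7 lost theirs too, at -0.73, -0.95, 0.19, 0.19 and 0.11. Against cluster 11, Isl1, Tubb3, Atoh7, Btg2 and Hspa1a lost their calls, at -0.88, -1.16, -0.39, -0.49 and 0.56. These fits were chosen after seeing the data.

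The 3 rod clusters differed in their levels of the genes given here. Cluster 0 (3244 cells), cluster 1 (3302 cells) and cluster 2 (3818 cells) held Sag at 1641, 4464 and 7415 CPM and Rcvrn at 53.0, 222 and 806 CPM, while Nrl was at 472, 579 and 620.0 CPM. Cluster 0 had the highest levels of Sox4, at 556, 120.0 and 54.6 CPM over the 3 clusters, and of Neurod4, at 787, 181 and 58.9 CPM. Nfib, at 831, 102 and 24.1 CPM, and Lhx4, at 99.2, 11.8 and 1.69 CPM, were highest in cluster 0 too. Fabp7 and Pcp2, both higher in rods as a class, were also highest there, at 4569 and 302 CPM against 449 and 20.2 CPM in cluster 2. Meis2 was at 1012, 541 and 411 CPM, and Meis1 at 311, 291 and 287 CPM.

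Cluster 1 was the shallowest, with medians of 1823 to 5856 UMIs per cell, against 4925 to 8456 in cluster 0. With only cluster 0 as the rods, Neurod4, Nfib, Lhx4, Gnat1, Ezh2 and Btg2 lost their calls, and Otx2 was higher by 0.49 (adjusted p = 0.0256). Per cell, the 24 phototransduction genes made up a median of 1.21%, 1.76%, 0.649% and 1.62% of a rod's UMIs in libraries 1 to 4. Library 3 had the lowest share, and 3.57% of its rods had no UMI of these genes.

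**Figure D4:**
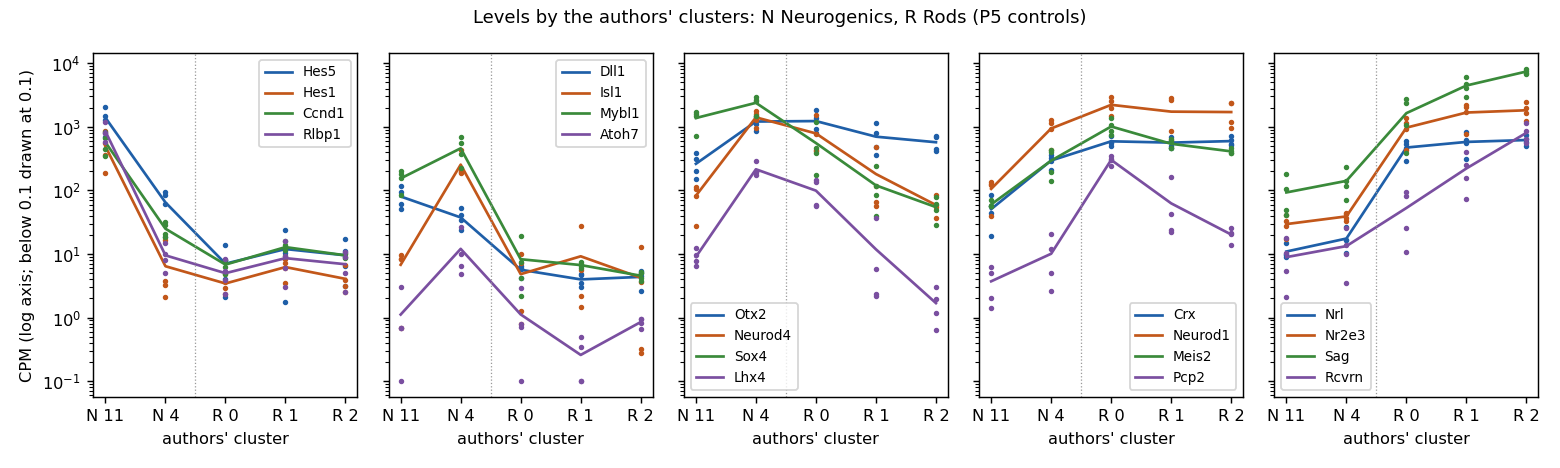
CPM (log axis) of 20 genes in the authors' clusters of Neurogenics (N 11, N 4) and Rods (R 0, R 1, R 2), ordered by hand; points are the 4 P5 control libraries and lines their means. Hes5, Hes1 and Ccnd1 are highest in N 11, Isl1 and Mybl1 in N 4, and Sag and Rcvrn in R 2, while Otx2 is at 1212 CPM in N 4 and 1232 CPM in R 0.

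Shares of cells with a UMI were compared at equal depth. Cells were thinned to 2000 UMIs, which left out 2079 of 10364 rods, 23 of 1711 neurogenic cells and 163 of 1264 amacrine cells. Nrl was then seen in 61.1% of rods, 3.47% of neurogenic cells and 6.35% of amacrine cells (means of 4 libraries), and Nr2e3 in 76.8%, 5.42% and 10.5%. Without thinning these shares were 76.2%, 12.8% and 14.2% for Nrl and 80.5%, 22.1% and 23.0% for Nr2e3. At equal depth the neurogenic share of both genes lay below the amacrine share in 4 of 4 libraries. The mean neurogenic share lay above that of thinned progenitors (1.72% for Nrl and 2.76% for Nr2e3). No expression in neurogenic cells is read from these shares, and the part of free RNA in them was not tested. Unthinned, the neurogenic share lay above the amacrine share for Nr2e3 in libraries 1 (42.9% against 38.7%) and 2 (24.3% against 22.6%). For Nrl it did so in library 1 (25.4% against 23.7%).

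Otx2 was seen in 69.8% of thinned rods and 62.9% of neurogenic cells, against 8.09% of amacrine cells (unthinned 81.6%, 77.9% and 17.8%). Neurog2 was seen in 7.10% of thinned neurogenic cells, 0.162% of rods and 1.95% of amacrine cells (unthinned 19.8%, 0.364% and 8.36%).

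The same step was measured in the 4 P2 control libraries, with 13602 rods and 3516 neurogenic cells. There 7102 of 13446 genes (52.8%) were called, and 3746 (27.9%) were higher and 3356 (25%) lower in rods, of which 675 (5.02% of those tested) and 813 (6.05%) passed the test against 2-fold. The difference between the steps, tested as an interaction over all 8 libraries, was called for 2608 of 14818 genes (17.6%), 1163 (7.85%) with a more positive and 1445 (9.75%) with a more negative log2 change at P5. The barcodes of the library labelled P2 control 1, which supplied 6928 of these rods and 1733 of these neurogenic cells, carry the name of a combined MEIS library, although the authors' sample column calls it a control. Its Meis1 level was the highest of the 4 in neurogenic cells (278 CPM against 113 to 184) and in rods (430.4 against 177 to 271), and its Meis2 level was within the range of the others in both (523 and 1285 CPM). Without it 2535 genes were higher and 2821 lower in rods at P2, and at P5 the step was called more positive for 716 and more negative for 1020 genes. Of 157 named genes 108 were called for that difference with it, of which 77 were called without it and 0 changed sign. The ages were not measured within a library, so age and library batch cannot be told apart. Clusters also differed in size: at P2 the authors' cluster 11 made up 25.0% ± 2.46 of neurogenic cells against 38.0% ± 8.03 at P5, and cluster 2 made up 16.5% ± 7.24 of rods against 36.6% ± 4.55 (SD, n = 4). Their part in the difference was not tested.

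Rod genes separated further at P5. The interaction was called positive for 16 of 24 phototransduction genes and 27 of 34 outer segment genes (9 and 22 without the library labelled P2 control 1). Nrl was 22.4 ± 2.70 CPM in neurogenic cells and 303 ± 42.3 CPM in rods at P2, and its step was larger at P5 by 1.41 ± 0.29 (adjusted p = 0.00794). Nr2e3, Sag and Prph2 were larger by 1.66, 1.98 and 1.69. Rcvrn (2.51), the trafficking protein gene Pex5l (2.39) and the noncoding Gm26883 (2.73) were among the largest positive differences of well-measured genes. Crx, Casz1 and Prdm1 were larger by 0.77, 1.46 and 1.75. The differences of Otx2 (-0.03 ± 0.21), Meis1 (0.33 ± 0.13), Meis2 (0.21 ± 0.39) and Neurog2 (-1.33 ± 0.76, adjusted p = 0.258) did not pass the test. Without P2 control 1, Rcvrn lost its call (2.33, adjusted p = 0.0851).

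Progenitor, proneural and Notch genes were called mostly toward a more negative step. Of 30 progenitor genes 23 had a more negative step at P5, as did 13 of 23 proneural and 8 of 24 Notch genes (17, 6 and 7 without P2 control 1). In neurogenic cells Crym and Rlbp1 were at 56.8 ± 18.3 and 15 ± 8.67 CPM at P2 and 1361 ± 1003 and 389 ± 203 CPM at P5 (mean ± SD, n = 4), with differences of -2.30 and -3.08. Hes5, Hes1, Notch1, Notch2 and Sox9 differed by -2.31, -2.37, -1.75, -3.52 and -2.85. Without P2 control 1, Hes1 and Crym lost their calls (-2.31 and -2.56, adjusted p = 0.061 and 0.089).

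Among genes with an average log2 CPM of at least 5, the largest negative differences were those of Cryab, a small heat shock protein of glia (-5.89), Pcp4, a calmodulin-binding peptide (-4.62), the arginine synthesis enzyme gene Ass1 (-4.09), Cntnap5a (-4.05) and Id3 (-3.84). Cryab did not pass the filter on low counts in the P2 step. Pcp4 was at 0.928, 0.797, 0.465 and 1.82 CPM in P2 neurogenic cells, near the floor. Nfib and Fos had opposite signs at the ages: the step of Nfib was 0.55 at P2 and -1.46 at P5, and that of Fos 1.33 and -2.06. Without P2 control 1 the P2 step was 0.60 for Nfib and 0.73 for Fos. Gnat2, Egr1, Lhx4 and Neurod4 differed by -2.86, -2.10, -1.91 and -1.25. Without P2 control 1, Cryab and Neurod4 lost their calls (-5.76 and -1.31, adjusted p = 0.0563 and 0.0545), and Gnat2 differed by -5.06. In P2 neurogenic cells Gnat2 was at 2.48, 1.20, 0 and 0 CPM in libraries 1 to 4, so the size of its difference is not well measured. Leaving out P2 library 3 reduced the positive count from 1163 to 703, and leaving out P2 library 1 or 4 or P5 library 2 or 4 left 716, 705, 705 or 720.

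**Figure D5:**
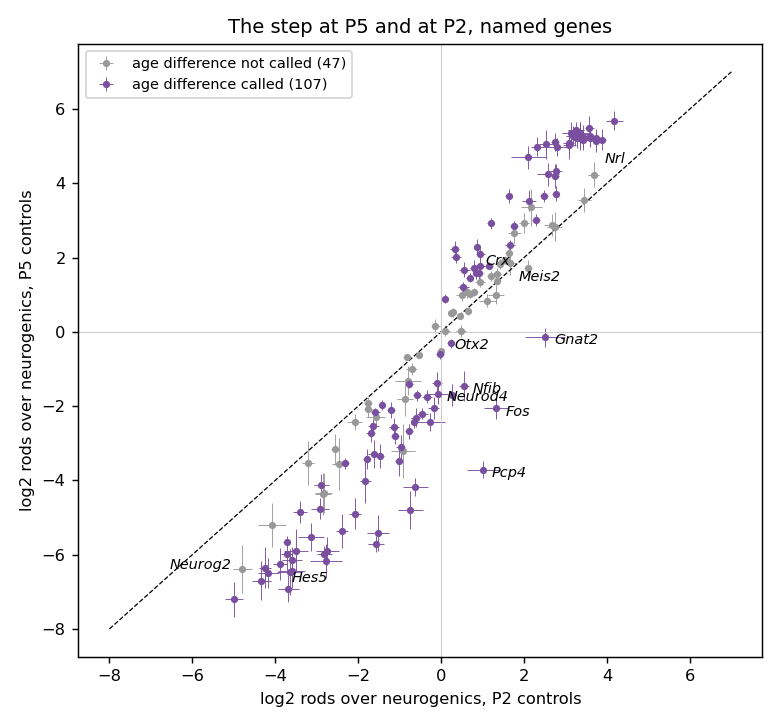
Log2 change of rods over neurogenic cells (± standard error) at P2 (x axis) and P5 (y axis) for 154 named genes tested at both ages, with equality dashed; purple marks the 107 genes whose difference between ages was called. Rod genes such as Nrl lie above the line at upper right and Hes5 below it at lower left, while Otx2 lies near the origin.

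In the 6 P5 libraries with a MEIS construct (9257 rods, 2033 neurogenic cells), the step did not differ detectably from the control step: 0 of 14996 genes were called by edgeR's quasi-likelihood test and 0 by DESeq2, with 212 (1.41%) at an unadjusted p under 0.05. On simulated data 68% of genes changed 2-fold and 96% of those changed 4-fold were recovered. The simulated counts held no differences between libraries and the same change in all 6 MEIS libraries. These rates therefore do not give the recovery for a change made by a single construct. The constructs were pooled, since their treatment tags contradict their titles. The difference (MEIS less control) was -1.07 ± 0.43 for Meis1, -0.87 ± 0.55 for Meis2, 0.57 ± 0.61 for Nrl, -0.04 ± 0.32 for Crx and 0.11 ± 0.40 for Hes5. The mean step of Meis1 was -0.05 over the MEIS libraries and 1.01 over the controls. Whether UMIs of a construct's own transcript were counted with the endogenous gene is not given in the sources used here.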

How the data were processed

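Per the labels, GFP-positive cells were sequenced as 10x Genomics 3′ libraries, and per the series design text a GFP locus was added to the genome. The submitters' processing notes name Cell Ranger, Seurat 5 and mm10; settings and filters on cells are not given in the sources used here. The deposited table holds raw UMI counts, not normalized: in 65489 of 65489 cells used their sum equals the cell's deposited UMI count (501 to 39467 UMIs per cell). The deposited cell table also gives the authors' cell types and clusters, and mitochondrial UMIs as a percent, which matched the counts within 0.01. The authors' names were used for cells and samples. Barcode starts of P5 controls 1 to 4 carry other replicate numbers than the titles; since each start belongs to 1 library, pairing within a library is not affected. Those of P2 control 1 carry the name of a combined MEIS library; the authors' sample column was followed, and the P2 step and the age difference were also fitted without it. The 6 P2 MEIS libraries (13520 cells) were not used.

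UMIs were summed per library and type (at least 20 cells), filtered by filterByExpr, scaled by TMM and fitted in edgeR 4.0.16 (R 4.3.3) by the quasi-likelihood test, two-sided, with the library as a block. Sums of a library deviate together: same-library correlations across 5552 genes were 0.363, 0.583, 0.554 and 0.475, each the highest for its library. A gene was called where its adjusted p (Benjamini-Hochberg) was under 0.05, and a second rule tested against 2-fold with glmTreat. On simulated data 87% of genes changed 2-fold and 100% of genes changed 4-fold were recovered for the P5 step (14099 genes), and 64% and 98% for the age difference (14014 genes). The simulated counts held no differences between libraries and only the set changes between types, so recovery in the data can differ. Coordinates of genes are from GENCODE vM21 (mm10). Doublets were not removed, and cells marked by Scrublet (scanpy 1.11.5, expected percent 6) were left out as an alternative. It marked 0.0159%, 0.556%, 2.69% and 0.766% of the cells of P5 controls 1 to 4. It did not work in control 1 and marked few cells elsewhere, so this alternative says little of doublets.

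Members and lists were chosen with earlier results of these data known. Named genes were the 15 of largest change in each direction with an average log2 CPM of at least 5 and the same sign in 4 of 4 libraries, 5 in each direction for an age difference, members of the lists by size of change or known role, and Meis1, Meis2 and GFP; GFP and mitochondrial genes were left out of the 15. Log2 changes of single libraries use a pseudocount of 1 CPM. Some genes that this rule names are not reported here. Alternatives were DESeq2 1.42.0, other scalings and filters, no block, all cell types in 1 fit, cells thinned to 2000 UMIs, mitochondrial and doublet limits, and each library left out; single clusters and leaving out the 5% of cells with the most UMIs were chosen after seeing the data.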

Additional observations from a re-analysis of the deposited data

Results flagged for a closer look

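For 10 of 151 named genes, and for 2 of 8 measures of cells and depth, 1 of the 4 P5 control libraries lay far from the other 3; chance gives this in about 1 of 20 groups of 4, which is near the share for the genes. Library 1 had the smaller log2 change for Gngt1 (3.68), Sag (4.26), Rcvrn (3.53), Prph2 (4.26) and Snap25 (2.44), against 5.41 to 5.48 for Gngt1, 5.44 to 5.63 for Sag, 5.33 to 5.58 for Rcvrn, 5.44 to 5.64 for Prph2 and 3.15 to 3.25 for Snap25 in the others. Beside these stand the values given above for library 1, whose amacrine cells held a median of 18.3% of the rod level of phototransduction genes against 5.64% to 6.20% elsewhere; its part in the smaller changes was not tested. Rims1 changed by -0.38 in library 1 and by -4.02 to -3.74 in the others, and Btg2 by -1.0 in library 1 and by -0.52 to -0.43 in the others. Library 2 had the larger change for Casz1 (3.09, others 1.97 to 2.07) and Map1b (1.88, others 1.27 to 1.35), and library 4 the smaller for Ezh1 (0.91, others 1.35 to 1.41). The neurogenic cells of library 3 were shallower, with a median of 7686 UMIs against 16284 to 17277, and 3022 genes against 4433 to 4714.

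The change from neurogenic cells to rods differed between P5 and P2 controls, by edgeR's quasi-likelihood test of the interaction, for 28 of the 33 genes named in that comparison. Part of these were named for a large difference, so their share is fixed in part by the choice; over all genes 2608 of 14818 (17.6%) were called. The differences (P5 less P2, log2) were positive for Nrl (1.41), Nr2e3 (1.66), Sag (1.98), Prph2 (1.69), Crx (0.77), Prdm1 (1.75), Casz1 (1.46), Gm26883 (2.73), Rcvrn (2.51) and Pex5l (2.39). They were negative for the Notch genes Hes5 (-2.31), Hes1 (-2.37), Notch1 (-1.75) and Notch2 (-3.52). Sox9 (-2.85), Rlbp1 (-3.08), Crym (-2.30), Nfib (-1.99), Id3 (-3.84) and Cryab (-5.89) were negative too. The remaining negative differences were those of Neurod4 (-1.25), Lhx4 (-1.91), Gnat2 (-2.86), Fos (-3.31), Egr1 (-2.10), Pcp4 (-4.62), Ass1 (-4.09) and Cntnap5a (-4.05). Pcp4 and Gnat2 were near the floor in P2 neurogenic cells, as given above.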

How the results depend on the processing

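The counts of called genes in the P5 step stayed within 1.5 times of 4336 higher and 4283 lower under every alternative except thinned cells (2764 lower) and, for genes lower beyond 2-fold, the stricter filter (1078 against 1740); both test fewer genes. With each library left out, 3395 to 3994 genes were higher, 3504 to 3920 lower, 998 to 1274 higher beyond 2-fold and 1379 to 1752 lower. Without the replicate block, 3360 were higher and 3295 lower at P5, while the P2 step fell from 3746 and 3356 to 1310 and 1329, and the age difference from 1163 and 1445 to 206 and 471. With each library left out, 2535 to 3696 genes were higher and 2821 to 3332 lower at P2, and the age difference ranged from 703 to 1290 higher and 992 to 1771 lower; the higher count dropped by over 1.5 times without P2 replicate 1 (716), 3 (703) or 4 (705) and without P5 replicate 2 (705) or 4 (720). The MEIS difference gave 0 calls in edgeR (212 at an unadjusted p under 0.05), in DESeq2 (68 higher and 72 lower unadjusted), without TMM, filter or block, and with each library left out. The difference in median UMIs ranged from -12066 to -8537 with each library left out, in genes from -2470 to -1695 and in mitochondrial percent from 0.639 to 1.42. The median change of all genes was 0.04, and 0.10 without TMM and 0.14 without a filter; 7849 of the 8619 calls were shared with DESeq2.

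Clusters and the deepest cells as alternatives were chosen after seeing the data. Of 151 named genes (150 without the block, where Pde6c was not tested), none changed sign under DESeq2, other scalings, the mitochondrial limit, Scrublet or no block. Scrublet marked few cells, so its setting says little of doublets. Otx2 changed sign under the stricter filter (-0.000862), in thinned cells (-0.12), against cluster 4 alone (-0.53), without the deepest 5% of cells (-0.0785) and without replicate 3 (from -0.0776 to 0.248 with each library left out). Abca4 did so under the stricter filter (-0.0162), against cluster 4 (-0.70), without the deepest cells (-0.0554) and without replicate 2 (-0.0934 to 0.197). Gadd45a did so without replicate 4 (-0.0138 to 0.354), against cluster 4 (-0.19) and with rods of cluster 0 (-0.36), and Gnat2 without replicate 4 (-0.298 to 0.0106), against cluster 11 (2.80) and with rods of cluster 0 (0.39). Against cluster 4, Crb1 (0.56) and Cdkn1b (0.0224) turned, against cluster 11, Neurod4 (2.08), Ezh2 (0.17), Lhx4 (2.08) and Grm6 (1.75), and with rods of cluster 0, Hspa1a (-0.51). Without the block Neurod4, Btg2, Fabp7, Nfib and Hspa1a lost their calls, and no other named gene did. With all cell types in the fit Btg2, Mki67, Fabp7, Ezh2 and Hspa1a did, and in thinned cells Fabp7. Mki67 lost its call without replicate 1, 3 or 4, Nfib and Ezh2 without 1, 2 or 4, and Hspa1a without 2, while Grm6 gained one without 1. The cause was not tested.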
